A study of Mus musculus with 12 samples.

Results

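Oxidative phosphorylation subunit genes were taken as the nuclear, protein-coding genes whose symbol is Ndufa, Ndufb, Ndufc, Ndufs or Ndufv with a digit, Sdha to Sdhd, any Uqcr gene, Cox4 to Cox8 with a letter, any Atp5 gene, or Cycs. Among 37991 genes in the count table, 88 met this rule. Of these, 83 are named for a subunit of a respiratory complex or for cytochrome c, and 5 matched by symbol only, namely Cox4nb, Atp5sl, Atp5s, Atp5l-ps1 and a second identifier carrying the name Ndufb8. Enough reads for testing were found for 80 members, 77 of them named for a complex or cytochrome c.

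RNA-seq was used to compare splenic resting B cells of 8-week-old Runx1 c-k/o mice (genotype CD23iCre/Runx1 ck/o) with those of control mice that carried the CD23-iCre transgene alone (Cre-only), before culture (0 h) and at 3 h of culture with both anti-IgM and IL-4, which engage the B cell receptor and the IL-4 receptor. All 4 groups carried the Cre transgene, which is switched on from the transitional B cell stage, and each held 3 replicates, or 12 libraries in all. The study asked how loss of RUNX1, a DNA-binding regulator of blood cell genes, alters the program of resting B cells and their answer to receptor stimulation.

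Oxidative phosphorylation takes place in the inner membrane of mitochondria. Complex I (NADH dehydrogenase) and complex II (succinate dehydrogenase) pass electrons to ubiquinone, complex III passes them on to cytochrome c, and complex IV (cytochrome c oxidase) hands them to oxygen. Protons pumped by complexes I, III and IV drive complex V, the ATP synthase. Resting lymphocytes are small cells of low metabolic activity, and antigen receptor signals start growth that raises their need for ATP and precursors.

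Total counts per library lay between 14442251 and 23641552, so that 3 counts stood for 0.127 to 0.208 CPM (read counts relative to library size). Summed B cell marker transcripts reached 16209 to 19299 CPM in the resting libraries and 7415 to 8588 CPM at 3 h. T cell markers (0.319 to 6.02 CPM) and NK cell markers (0.51 to 3.81 CPM) were near 0 throughout. Myeloid marker sums lay between 173 and 332 CPM at rest and between 11.2 and 35.0 CPM at 3 h, and erythroid marker sums were 37.0 to 265 CPM in resting Cre-only and 250 to 413 CPM in resting Runx1 c-k/o libraries, and 12.5 to 145 and 116 to 204 CPM at 3 h. Plasma cell marker sums had means of 221 CPM at rest and 317 CPM at 3 h with Cre-only, and of 278 and 425 CPM with Runx1 c-k/o. Replicate 2 of resting Runx1 c-k/o cells held 401 CPM of these, against 165 and 267 in its replicates. Single plasma cell markers went both ways. By the edgeR test used below, 1 of the 4 was higher and 2 were lower at 3 h in each genotype. In Cre-only cells mean Xbp1 went from 61.9 to 241 CPM and mean Sdc1 from 17.9 to 3.98 CPM. At rest mean Sdc1 was 7.04 CPM with Runx1 c-k/o. The part of these differences in the results below was not tested.

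The label check was limited. Runx1 in resting libraries read 83.6, 81.8 and 86.7 normalized CPM where labelled Cre-only and 101, 95.7 and 103 where labelled Runx1 c-k/o. At 3 h it read 38.5, 37.0 and 34.9 under the Cre-only label and 47.3, 70.6 and 74.5 under the Runx1 c-k/o label, a log2 difference of 0.80 (SE 0.137, edgeR adjusted p = 0.00769). Only exon 4 is deleted, and reads on every exon were counted, so these values do not check the genotype. Each difference between genotypes below is a difference between libraries by label.

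A pair of Runx1 c-k/o libraries stood apart from the other libraries of their groups, namely replicate 2 at rest and replicate 1 at 3 h. Read counts of these libraries differed from those of their own replicates with a chi-square per degree of freedom of 30.6 to 84.7, where other pairs of one group gave 3.31 to 13.95. Results that rest on them are given with and without both.

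Promoter sequences are shown first. RefSeq windows (GRCm38.p6) from 250 bases before to 50 bases after the gene start were found for 70 of the 88 members. These windows were searched on both strands for the cores of NRF1 (GCATGCG), the ETS family (CCGGAAG) and YY1 (AAGATGG), factors known to bind promoters of respiratory genes, and for an E-box (CACGTG) and a RUNX core (TGTGGT). An NRF1 core preceded by C also matches on the opposite strand, and such overlapping matches were counted once per window. The 250 bases before the start are printed 5′ to 3′ on the gene's strand for 4 members. Cycs, the gene of cytochrome c, was the most induced member, and Cox6a1, a complex IV subunit, held cores of both NRF1 and ETS. Atp5b, the catalytic beta subunit of complex V, rose with none of the 5 cores in this window, and Cox7a2l was the member of a complex that fell most. Capitals mark the cores found.
Cycs, chr6:50566570-50566819, minus strand: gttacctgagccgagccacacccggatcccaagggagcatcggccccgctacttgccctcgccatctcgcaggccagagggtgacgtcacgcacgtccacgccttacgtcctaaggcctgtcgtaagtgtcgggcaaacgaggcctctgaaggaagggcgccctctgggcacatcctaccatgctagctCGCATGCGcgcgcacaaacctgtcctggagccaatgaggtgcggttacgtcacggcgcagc
Cox6a1, chr5:115348959-115349208, minus strand: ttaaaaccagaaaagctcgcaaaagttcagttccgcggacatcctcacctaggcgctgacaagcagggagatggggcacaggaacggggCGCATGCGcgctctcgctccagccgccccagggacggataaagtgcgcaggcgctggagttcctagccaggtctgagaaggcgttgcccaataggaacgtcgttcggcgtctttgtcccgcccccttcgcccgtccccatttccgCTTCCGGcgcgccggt
Atp5b, chr10:128083057-128083306, plus strand: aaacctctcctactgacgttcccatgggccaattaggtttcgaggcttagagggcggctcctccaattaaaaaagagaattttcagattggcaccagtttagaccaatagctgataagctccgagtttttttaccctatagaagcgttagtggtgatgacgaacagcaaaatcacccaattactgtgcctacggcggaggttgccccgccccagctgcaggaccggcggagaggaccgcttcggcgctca
Cox7a2l, chr17:83514334-83514583, minus strand: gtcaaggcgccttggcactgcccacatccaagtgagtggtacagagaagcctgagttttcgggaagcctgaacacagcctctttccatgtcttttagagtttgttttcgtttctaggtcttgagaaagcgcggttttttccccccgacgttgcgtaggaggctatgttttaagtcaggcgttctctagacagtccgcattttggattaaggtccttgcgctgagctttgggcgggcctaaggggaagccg

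The NRF1 core stood in 12 of 70 member windows (17.1%) and in 4.01% of the windows of 27025 genes. For the ETS core the counts were 16 of 70 (22.9%) against 9.93%, and for the YY1 core 12 of 70 (17.1%) against 7.28%. At least 1 of these 3 cores was held by 33 of 70 members (47.1%) and by 19.3% of all genes. The E-box was found in 7 member windows (10%, against 8.09% of all genes) and the RUNX core in 8 (11.4%, against 18.9%). Median GC content was 57.5% in member windows and 52.7% in all windows. In Cycs the NRF1 core lay 54 to 60 bases before the start. Of the 41 members with a window called higher on activation in Cre-only cells, 8 (19.5%) held the NRF1 core. The ETS core stood in 12 of them (29.3%) and the YY1 core in 8 (19.5%). Among the 29 other members, which were called lower, not called or not tested, each of these cores stood in 4 (13.8%). A link of the cores to the change on activation was not tested. These are matches of letters only. All genes here means every gene with a window, whether or not it had enough reads for testing. Shares among the tested genes alone were not taken.

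Levels of the members in resting Cre-only cells spread widely within each complex. Levels between genes were compared as normalized CPM per kb of transcript. In complex I they ran from 6.76 ± 0.27 (SD, n = 3) for Ndufa11 to 103 ± 9.1 for Ndufa3, both accessory subunits, with a median of 28.4 over the complex. In complex III the lowest was Uqcr11 (31.5 ± 3.37) and the highest the hinge protein gene Uqcrh (214 ± 4.58), around a median of 57.3. Complex IV ranged from Cox6b2, a testis isoform (1.01 ± 0.582), to Cox4i1 (213 ± 7.23), with a median of 93.1. The median of complex V was 108, from 41.1 ± 0.758 for Atp5j2 to 253 ± 11.3 for Atp5b. In complex II Sdhc stood at 11.3 ± 0.329 and Sdha at 68.5 ± 0.87, and Cycs stood at 10.9 ± 0.461. The order rests on the transcript length used. With the union of all exons as length, the lowest and highest members were Ndufb2 and Ndufb11 in complex I, Uqcrq and Uqcrh in complex III, and Atp5g1 and Atp5g2 in complex V, while those of complex IV were Cox6b2 and Cox4i1 again. The order of the complexes turned too. Complex V had the highest median by transcript length, but by union length its median was 37.1, below complex III (42.4) and complex IV (62.9).

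**Figure D1:**
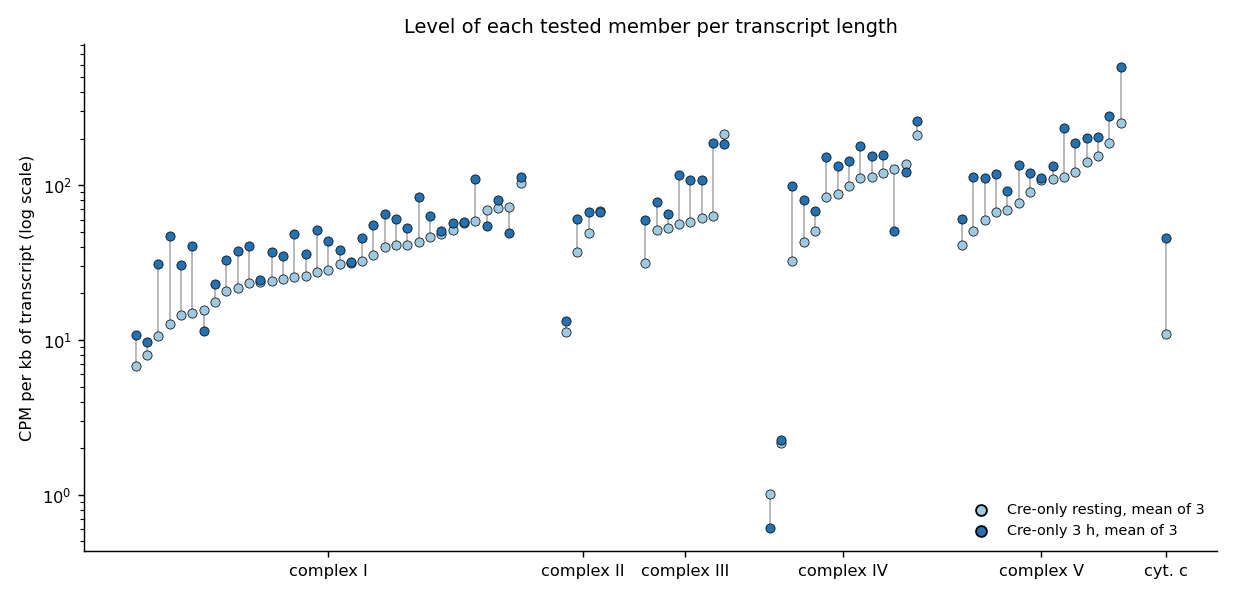
Mean level of each tested member in resting (light) and 3-h (dark) Cre-only cells, in normalized CPM per kb of transcript on a log axis, with members sorted by resting level within each complex and lines joining the time points. With this length complex V members lie highest by median at rest (108) and Atp5b is the highest point at both times, which does not hold at rest with the union of exons as length.

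Isoform families showed which versions of a subunit the B cells transcribed. Shares within a family were taken on the level per kb. In resting Cre-only cells Cox4i1 took 99.97% of the Cox4i level, Cox6a1 97.6% of the Cox6a level and Cox6b1 99.1% of the Cox6b level. Ndufa4, Cox7b and Cox8a each took 100% of their families. The partners Cox4i2, Cox6a2, Cox6b2, Cox7a1 and Cox8b are known from lung, heart and muscle, or testis. Cox8c and Cox7b2 had 0 counts in all 12 libraries, which allows up to 3 counts, or 0.127 to 0.208 CPM, in each. Ndufa4l2, a gene known as a target of hypoxia signaling and a paralog of Ndufa4, had 0 counts in all 6 resting libraries. After 3 h the Cre-only libraries had 3, 1 and 2 counts and the Runx1 c-k/o libraries 6, 7 and 4, too few for a test. The other untested members were Cox4i2 (0 to 4 counts), Cox8b (0 to 1), Cox7a1 (3 to 13), Atp5l-ps1 (0 to 1) and the second Ndufb8 identifier (0 to 1).

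Most members were higher at 3 h than at rest. Activation here names the change from 0 h to 3 h of culture with anti-IgM and IL-4. No group was cultured for 3 h without them, so their effect cannot be told apart from that of culture. In Cre-only cells 49 of 80 tested members were higher at 3 h and 4 were lower (edgeR adjusted p under 0.05), where 38.6% of all 13538 tested genes were higher and 36.4% lower. The median log2 fold change over the members was 0.55, a 1.46-fold rise, against 0.03 over all tested genes. With a limit of at least 1.5-fold added, 37 members were higher and 2 lower (background 30.8% and 31.3%). All 3 libraries at 3 h lay above all 3 resting libraries for 63 members and below them for 7 (background 43.8% and 40.6%). Runx1 c-k/o cells, which share no library with the Cre-only groups, had 55 higher and 4 lower members (background 37.7% and 36.6%), with a median log2 fold change of 0.60 against 0.00 over all tested genes. At least 1.5-fold, 43 were higher and 3 lower there (background 29.8% and 31.3%), and the time points did not overlap for 39 higher and 3 lower members (background 36.5% and 36.3%). Without the libraries that stood apart, 61 members were higher and 7 lower in Cre-only cells, whose own libraries were all kept, and 59 and 9 with Runx1 c-k/o, with medians of 0.50 in each. That fit called 40.7% of all genes higher and 41.0% lower in Cre-only cells, and 38.6% and 38.0% with Runx1 c-k/o. The same direction was seen in both genotypes for 79 of 80 members (Pearson r = 0.97, Spearman rho = 0.97 across genes, which are not independent replicates). The same values were not taken over all tested genes, so this likeness is not shown to be particular to the members.

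The split of calls depended on a correction for unwanted variation. When 1 RUVs factor, estimated from differences between replicates, was added to the edgeR model, 14 members were higher and 32 lower in Cre-only cells, and Runx1 c-k/o cells had 14 and 30. Over all genes the same fit called 35.1% higher and 30.4% lower in Cre-only cells, and 33.2% and 30.4% with Runx1 c-k/o. The medians became −0.17 and −0.15. In DESeq2 with the same factor Cre-only cells had 7 higher and 37 lower members, and Runx1 c-k/o cells had 10 and 33, where 30.1% and 31.8%, and 29.1% and 30.1%, of all genes were called. Differences between time points held 77.3% of the variance of the factor, and it set the libraries that stood apart away from their replicates. In the Runx1 c-k/o libraries it read 0.89, 0.35 and 0.93 at rest and −1.14, −0.00 and −0.13 at 3 h. The part of either in the reversal was not tested. Members that kept a rise under the factor in both models and both genotypes included Cycs, Ndufa12, Ndufa5, Atp5b, Uqcrc2 and Uqcrq, and Cox7a2l kept its fall.

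**Figure D2:**
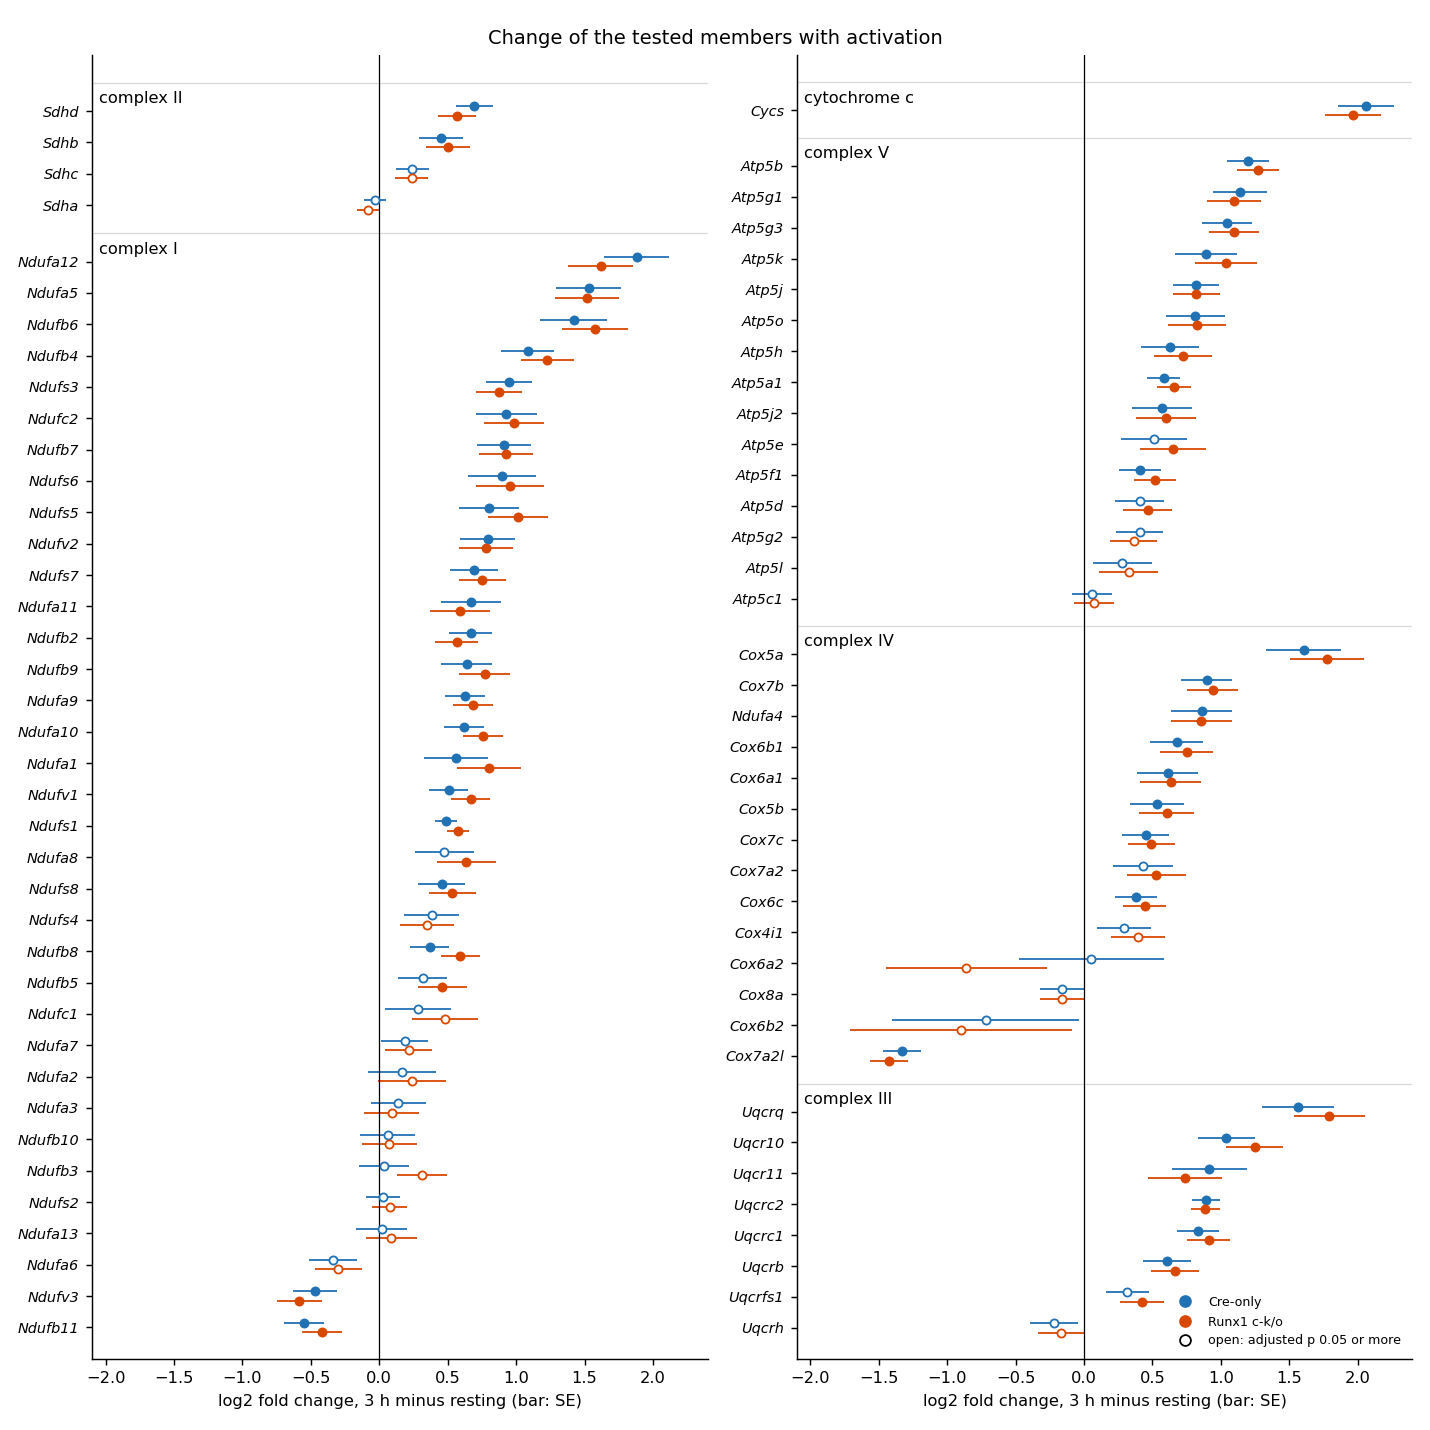
Log2 fold change from resting to 3 h for the 77 tested members of a complex or cytochrome c, with bars of 1 SE, in Cre-only (blue) and Runx1 c-k/o cells (orange), where open points did not pass the test. Most points lie to the right of 0 in both genotypes, Cycs is farthest right (2.06 and 1.97) and Cox7a2l farthest left among filled points (−1.33 and −1.43).

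Summed over all 88 members, the Cre-only libraries held 4792, 4817 and 4537 normalized CPM at rest and 6863, 7055 and 7064 at 3 h. The groups did not overlap, and the mean rose 1.48-fold from 4715 ± 155 to 6994 ± 113 (SD, n = 3). Runx1 c-k/o libraries held 4726, 6469 and 4853 at rest and 10687, 7219 and 6996 at 3 h. Replicate 2 at rest and replicate 1 at 3 h, the libraries that stood apart, gave the highest sums of their groups. By complex, the Cre-only mean rose 1.38-fold for complex I (1091 ± 43.8 to 1501 ± 21.5 CPM), 1.16-fold for complex II (338 ± 8.38 to 391 ± 3.56), 1.56-fold for complex III (489 ± 11.6 to 764 ± 17.3), 1.24-fold for complex IV (796 ± 20.7 to 988 ± 29.7) and 1.70-fold for complex V (1843 ± 71.8 to 3126 ± 45.0). These are shares of the sequenced RNA. In such bulk samples fewer cells of a type and less RNA per cell cannot be told apart.

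**Figure D3:**
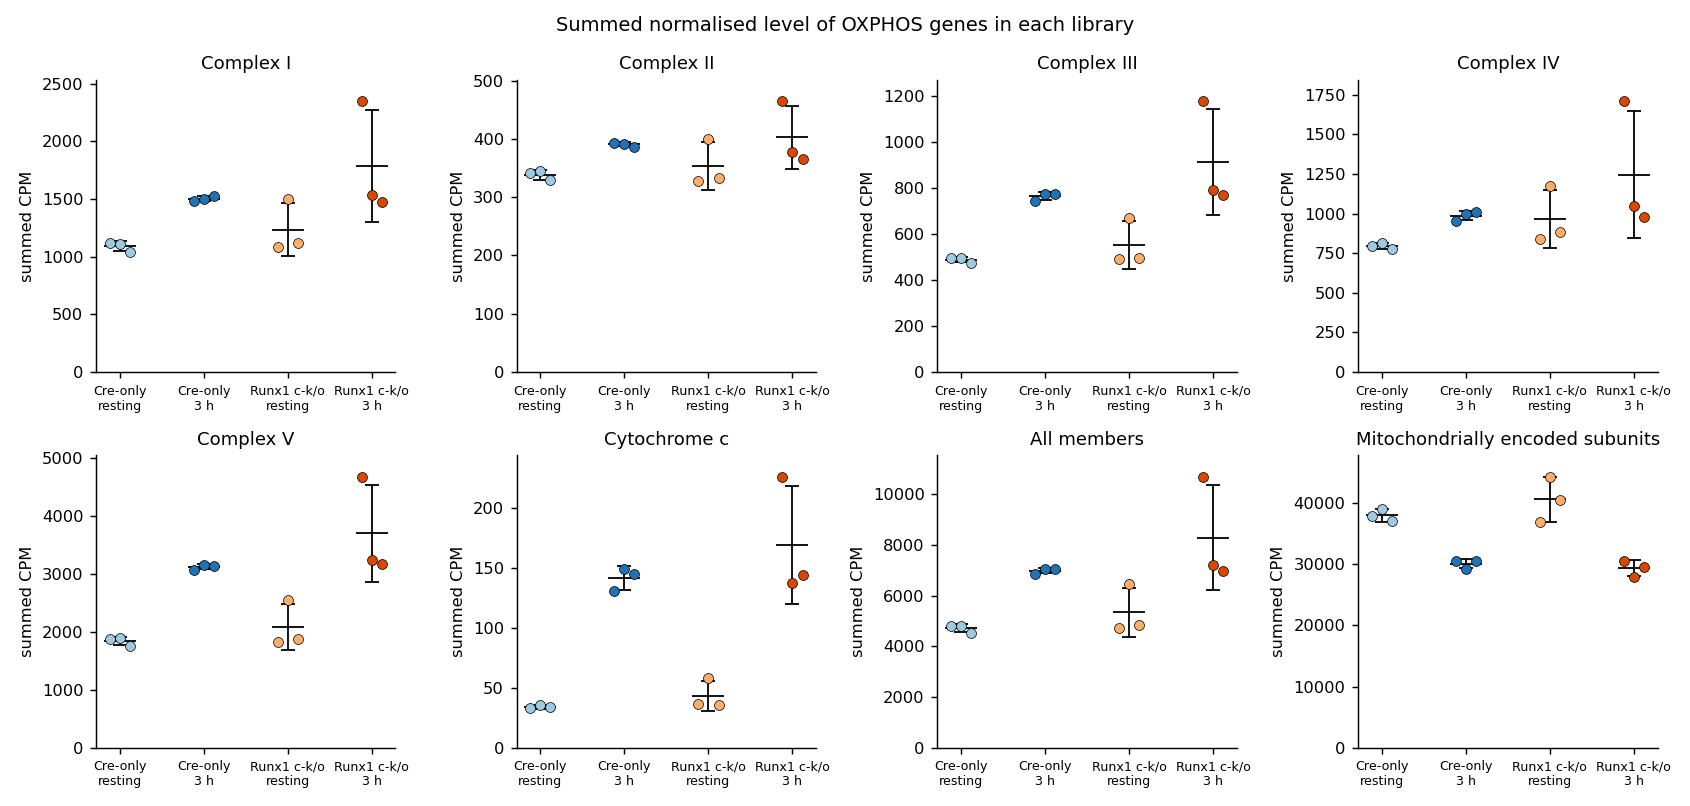
Summed normalized CPM of the members of each complex, of all 88 members and of the 13 mitochondrially encoded subunits, with a point for each library and lines for the mean ± SD of 3 libraries. In Cre-only cells the nuclear sums are higher at 3 h, and the mitochondrially encoded sum falls from 37025 to 39125 CPM down to 29266 to 30575 CPM. In Runx1 c-k/o cells the time points overlap for complexes I, II and IV. There 1 Runx1 c-k/o library at each time lies above its replicates in every panel of nuclear genes.

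Complex I had 35 tested members, of which 21 were higher and 2 lower in Cre-only cells, with a median log2 fold change of 0.51. Runx1 c-k/o cells had 23 higher and 2 lower. Ndufs1, the largest core subunit with iron-sulfur clusters, read 66, 68.2 and 64.5 normalized CPM at rest and 91.2, 94.1 and 93.6 at 3 h in Cre-only cells. Its log2 fold change was 0.49 (SE 0.0795, edgeR adjusted p = 0.000118), and Runx1 c-k/o cells gave 0.58, where the libraries read 59.3, 67.5 and 63.0 at rest and 101, 87.3 and 94.6 at 3 h. The groups did not overlap in either genotype.

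Ndufa12, an accessory subunit added late in assembly, read 14.8, 14.4 and 13.3 CPM at rest and 50.5, 55.0 and 51.3 at 3 h in Cre-only cells (log2 fold change 1.88, SE 0.237, adjusted p = 1.65e-05). The Runx1 c-k/o libraries went from 16.9, 28.2 and 15.8 to 86.8, 49.4 and 50.6 CPM (1.62, SE 0.235). Ndufa5, an accessory subunit of the peripheral arm, went from 9.73, 9.17 and 9.11 to 25.6, 26.4 and 29.1 CPM in Cre-only cells (1.53, SE 0.237, adjusted p = 8.46e-05). All activated libraries lay above all resting ones for both genes.

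The complex I members that fell, named here after their values were seen, were Ndufb11 and Ndufv3. Ndufb11, a membrane arm subunit encoded on the X chromosome, went from 67.7, 67.4 and 61.3 CPM to 45.0, 43.9 and 45.4 in Cre-only cells (−0.55, SE 0.145, adjusted p = 0.00434). Its change was −0.42 in Runx1 c-k/o cells (adjusted p = 0.0197), and replicate 1 at 3 h, at 68.0 CPM, overlapped the resting libraries. That call was lost without replicate 2 at rest (−0.30), replicate 2 at 3 h (−0.35) or replicate 3 at 3 h (−0.28). Ndufv3, an accessory subunit of the NADH-binding module, changed by −0.47 in Cre-only cells (adjusted p = 0.0199, and −0.46 with adjusted p = 0.0530 when replicates were paired; the call was also lost without resting replicate 1 or 2 or 3-h replicate 1 or 3, at −0.40 to −0.45), and by −0.59 in the other genotype (adjusted p = 0.00604).

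Complex II, the enzyme shared with the citrate cycle, had the smallest rise of its summed CPM, given above. Sdha, which carries the flavin and is the catalytic subunit, read 196, 201 and 199 CPM at rest and 199, 190 and 195 at 3 h in Cre-only cells. The groups overlapped, and the log2 fold change was −0.03 (SE 0.0822, adjusted p = 0.751). It passed as lower with 1 RUVs factor (−0.24, adjusted p = 0.0314 in edgeR, and −0.34 in DESeq2), with genes limited to at least 10 counts in every library (−0.19, adjusted p = 0.0373) and with the compared groups alone (−0.098, adjusted p = 0.0399). Sdhb, the iron-sulfur subunit, went from 57.6, 57.5 and 52.5 to 74.3, 82.0 and 72.7 CPM (0.45, SE 0.16, adjusted p = 0.0225). Sdhd, a membrane anchor, went from 50.9, 49.9 and 42.8 to 77.9, 76.0 and 78.4 CPM (0.69, SE 0.137, adjusted p = 0.000564). Sdhc, the other anchor, read 36.7, 36.1 and 34.6 at rest and 42.4, 43.8 and 41.0 at 3 h, without overlap, but did not pass the test (0.24, SE 0.119, adjusted p = 0.0827). Without the libraries that stood apart it did (0.20, adjusted p = 0.0130). The call of Sdhb in Cre-only cells was lost without replicate 3 at rest (0.41, adjusted p = 0.0717) or replicate 2 at 3 h (0.40, adjusted p = 0.0709), and with DESeq2 (0.37, adjusted p = 0.0565). Sdhb (0.50) and Sdhd (0.57) in Runx1 c-k/o cells were again the members that passed, Sdhb not without replicate 1 (0.42) or 3 (0.43) at rest.

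Complex III had the largest median rise of the complexes with several members, 0.86 in Cre-only cells, with 6 of 8 tested members higher. With Runx1 c-k/o, 7 of 8 were higher and the median was 0.81. Uqcrc2, a core protein, read 111, 107 and 106 CPM at rest and 194, 204 and 201 at 3 h in Cre-only cells (0.89, SE 0.104, adjusted p = 7.64e-06). Its partner Uqcrc1 went from 102, 102 and 99.8 to 179, 179 and 182 CPM (0.83, SE 0.156, adjusted p = 0.000389). No library of one time point overlapped the other for these core proteins.

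The largest rise in complex III was that of Uqcrq, the ubiquinone-binding subunit VII. It read 26, 26.8 and 24.1 CPM at rest and 71.6, 77.1 and 78.9 at 3 h in Cre-only cells (1.57, SE 0.262, adjusted p = 0.000173). Runx1 c-k/o libraries read 28.9, 46.9 and 24.6 at rest and 171, 88.8 and 88.7 at 3 h (1.79, SE 0.26). Uqcr10, a small subunit, rose by 1.04 in Cre-only cells and by 1.25 with Runx1 c-k/o. Uqcrh, the most abundant complex III member per kb at rest, read 117, 119 and 114 at rest and 102, 99.5 and 99.9 at 3 h in Cre-only cells. The groups did not overlap, and the difference of −0.22 did not pass the test (adjusted p = 0.267), but did without the libraries that stood apart (−0.27, adjusted p = 0.000169) and with 1 RUVs factor (−0.94, adjusted p = 1.39e-06 in edgeR, and −1.05 in DESeq2).

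Cytochrome c, the soluble carrier between complexes III and IV, rose most of all members in both genotypes. Cycs read 32.7, 35.5 and 33.6 CPM in resting Cre-only cells and 130, 149 and 145 at 3 h, a log2 fold change of 2.06 (SE 0.205, edgeR adjusted p = 2.32e-06), or 4.17-fold. With Runx1 c-k/o it read 36.1, 57.8 and 35.8 at rest and 225, 137 and 144 at 3 h (1.97, SE 0.204, adjusted p = 3.58e-06). Every activated library exceeded every resting one. Cycs has 5 near-identical copies elsewhere in the genome, so its reads may be shared with them. Under 1 RUVs factor its rise was 1.23 in Cre-only cells and 1.10 with Runx1 c-k/o (edgeR).

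In complex IV 8 of 14 tested members were higher and 1 lower in Cre-only cells (median 0.44), and Runx1 c-k/o cells had 9 and 1 (median 0.51). Cox5a, a matrix-side subunit, went from 20.7, 23.5 and 23.2 CPM to 59.5, 72.3 and 73.6 in Cre-only cells (1.61, SE 0.274, adjusted p = 0.000201). Runx1 c-k/o libraries went from 24.4, 44.4 and 23.4 to 153, 84.2 and 77.9 CPM (1.77, SE 0.271). Cox7b, a small membrane subunit, went from 44.3, 44.0 and 41.5 to 80.7, 82.5 and 78.4 CPM in Cre-only cells (0.90, SE 0.188, adjusted p = 0.000891). For both genes the resting and activated libraries were separate. Cox4i1, the most abundant member per kb of this complex, read 147, 147 and 139 at rest and 178, 172 and 179 at 3 h, and its change of 0.29 did not pass the test (adjusted p = 0.202), but did without the libraries that stood apart (0.24, adjusted p = 0.000584).

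Cox7a2l, also known as a factor that joins complexes III and IV into supercomplexes, was the single complex IV member called lower. In Cre-only cells it read 142, 147 and 147 CPM at rest and 57.6, 58.6 and 57.3 at 3 h (−1.33, SE 0.137, adjusted p = 2.82e-06). The Runx1 c-k/o libraries read 166, 207 and 182 at rest and 86.1, 65.9 and 54.8 at 3 h (−1.43, SE 0.137, adjusted p = 1.68e-06). The activated libraries lay below the resting ones without overlap in each genotype. Cox8a, an isoform found in most tissues, also read lower without overlap in Cre-only cells, from 73.2 to 76.2 CPM at rest and from 62.7 to 70.5 CPM at 3 h, but did not pass the test (−0.16, adjusted p = 0.373). The Cox7a2l paralog Cox7a2 read 39.5, 42.2 and 33.0 at rest and 49.2, 52.5 and 52.9 at 3 h in Cre-only cells (0.43, adjusted p = 0.0925, and 0.38 with adjusted p = 0.000282 without the libraries that stood apart). Cox7a2l took 71.0% ± 2.65 of the Cox7a level per kb at rest and 42.2% ± 0.913 at 3 h, and Cox7a2 took 28.3% ± 2.67 and 57.2% ± 0.997. The share of Cox7a2l with Runx1 c-k/o went from 72.0% ± 3.54 to 40.2% ± 2.34.

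Complex V held the most counts of all complexes when only the nuclear members were summed, and 10 of 15 tested members were higher in Cre-only cells (median 0.58). Of the same 15, Runx1 c-k/o cells had 12 higher. Atp5b, the beta subunit with the catalytic sites, read 496, 499 and 460 CPM at rest and 1102, 1118 and 1118 at 3 h in Cre-only cells (1.20, SE 0.153, adjusted p = 1.74e-05). In the Runx1 c-k/o libraries it read 479, 692 and 490 at rest and 1612, 1198 and 1210 at 3 h (1.27, SE 0.153). Every library at 3 h exceeded every resting library. The partner subunits moved less. Atp5a1, the alpha subunit, rose by 0.58 in Cre-only cells (SE 0.121, adjusted p = 0.000838), and Atp5c1, the gamma subunit of the central stalk, read 128, 129 and 120 at rest and 123, 139 and 130 at 3 h (0.06, adjusted p = 0.734).

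The c subunit of the membrane ring is the same mature protein from 3 genes. Atp5g1 went from 31.0, 31.7 and 28.5 CPM to 67.5, 69.7 and 63.8 in Cre-only cells (1.14, SE 0.198, adjusted p = 0.000216). Atp5g3 went from 80.8, 85.6 and 76.4 to 162, 169 and 170 CPM (1.04, SE 0.184, adjusted p = 0.000249). Atp5g2 read 100, 105 and 95.4 at rest and 130, 132 and 137 at 3 h, and did not pass the test (0.41, SE 0.174, adjusted p = 0.0503), but did without the libraries that stood apart (0.36, adjusted p = 1.53e-05). The share of Atp5g2 in the summed level per kb of the 3 genes went from 48.5% ± 0.208 to 37.2% ± 0.7, that of Atp5g3 from 35.5% ± 0.17 to 42.4% ± 0.488, and that of Atp5g1 from 16.0% ± 0.255 to 20.4% ± 1.0. With the union of exons as length the share of Atp5g2 was 78.2% at rest and 69.5% at 3 h, so its size but not its direction rests on the length. The Runx1 c-k/o shares followed the same pattern, with Atp5g2 at 49.3% ± 1.22 and 36.8% ± 0.178. In each genotype the resting and activated libraries did not overlap for these shares. Atp5g2 has 3 near-identical copies in the genome and Atp5g1 has 1.

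**Figure D4:**
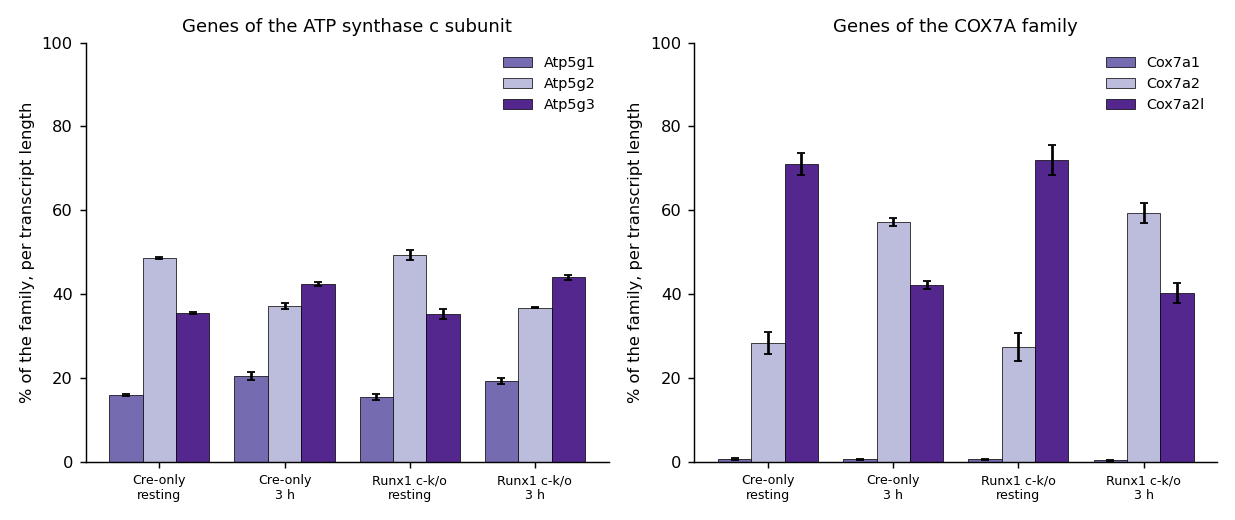
Share of each gene in its family, in percent of the summed level per transcript length, as the mean of 3 libraries with bars of 1 SD in each group. Atp5g2 and Cox7a2l hold smaller shares at 3 h (37.2% and 42.2% in Cre-only cells) than at rest (48.5% and 71.0%), in both genotypes.

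Of the 3 tested members that matched by symbol only, 1 was higher and 1 lower in each genotype. The lower one was Atp5sl, known as an assembly factor of complex I, which went from 102, 103 and 98.9 CPM to 39.1, 38.7 and 37.3 in Cre-only cells (−1.40, SE 0.0691, adjusted p = 1.59e-08) and changed by −1.10 with Runx1 c-k/o. In each genotype all activated libraries were below all resting ones.

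Genes around the nuclear subunits were counted as lists, against the same all-gene shares of calls on activation (38.6% higher and 36.4% lower in Cre-only cells, and 37.7% and 36.6% with Runx1 c-k/o). Of the 13 mitochondrially encoded subunits, 12 were tested, and 5 were lower at 3 h in Cre-only cells and 8 in Runx1 c-k/o cells, with medians of −0.26 and −0.45. The Cre-only count was near the background. The highest estimate in Cre-only cells was that of mt-Nd3 (0.03, adjusted p = 0.907). mt-Co1, a core subunit of complex IV made in the mitochondrion, changed by −0.48 in Cre-only cells (SE 0.107, adjusted p = 0.00132) and by −0.62 with Runx1 c-k/o. The subunit genes that the symbol rule missed gave 4 higher of 5 tested in each genotype, led by Ndufab1, the acyl carrier protein of complex I (1.78 in Cre-only cells). Atpif1, the inhibitor of the ATP synthase, read −0.36 in Cre-only cells (adjusted p = 0.0694) and fell by 0.58 in Runx1 c-k/o cells (adjusted p = 0.00789).

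Among assembly factors 32 were higher and 2 lower of 47 tested in Cre-only cells (median 0.88), and Runx1 c-k/o cells had 33 and 2 (median 0.86). Under 1 RUVs factor (edgeR) Cre-only cells had 24 and 9, and Runx1 c-k/o cells 26 and 9, beside all-gene shares of 35.1% and 30.4%, and of 33.2% and 30.4%. Tmem186, a complex I assembly factor, rose by 1.79, Ttc19 of complex III by 0.91, Lrpprc, which stabilizes mitochondrial transcripts, by 1.65, and Tmem70 of complex V by 1.81 in Cre-only cells. Each passed the test, with adjusted p from 3.88e-08 for Tmem186 to 3.72e-06 for Tmem70. The factors that fell were Sdhaf4, a chaperone of Sdha (−1.45, adjusted p = 4.22e-05), and Cmc2, a copper-site factor of complex IV (−1.39, adjusted p = 6.4e-05). Complex II factors split, with 1 higher and 1 lower of 4.

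In the comparison of genotypes 0 of 80 members passed the edgeR test in either direction at rest, where 0.731% of all genes were higher and 0.761% lower with Runx1 c-k/o. DESeq2 also gave 0, where it called 1.34% of all genes higher and 1.46% lower. A raw p under 0.05 was reached by 2 members (background 11.1%), Atp5sl (−0.21, adjusted p = 0.233) and Cox7a2l (0.35, adjusted p = 0.337). The estimate was positive for 76 of 80 members, with a median of 0.23 against 0.03 over all genes. All 3 Runx1 c-k/o libraries lay above all Cre-only libraries for 18 members and below for 1 (background 12% and 11.6%).

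At 3 h 0 of 80 members passed by edgeR or DESeq2 (background 1.47% higher and 1.3% lower by edgeR, and 3.12% and 2.10% by DESeq2). A raw p under 0.05 was reached by 5 (background 16.2%), namely Uqcrq (0.61), Cox5a (0.62), Atp5d (0.40), Ndufb8 (0.32) and Atp5e (0.53), with 0.268 as the smallest adjusted p. The estimate was positive for 77 of 80, with a median of 0.27 against 0.01. The groups did not overlap for 12 members, all higher, and for 0 lower (background 9.5% and 12.3%). For the interaction of genotype and activation 0 members passed by either tool. The background was 0.0665% higher and 0.0148% lower by edgeR, and 0.428% and 0.155% by DESeq2. A raw p under 0.05 was reached by 1 member in edgeR, Atp5sl (0.30, adjusted p = 0.656, background 5.07%).

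These positive medians rested on the libraries that stood apart. Against the Cre-only mean, the median log2 ratio of the 80 members was 0.02, 0.52 and 0.06 in Runx1 c-k/o replicates 1, 2 and 3 at rest, and 0.69, 0.04 and −0.02 at 3 h. Over all tested genes the same medians ran from −0.03 to 0.08. Replicate 2 was the highest of the 6 resting libraries for 76 of 80 members, where it was the highest for 41.1% of all genes. Replicate 1 at 3 h was the highest of 6 for 79 of 80 members and for 33.7% of all genes. Without these libraries the median differences were 0.05 at rest and 0.02 at 3 h.

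**Figure D5:**
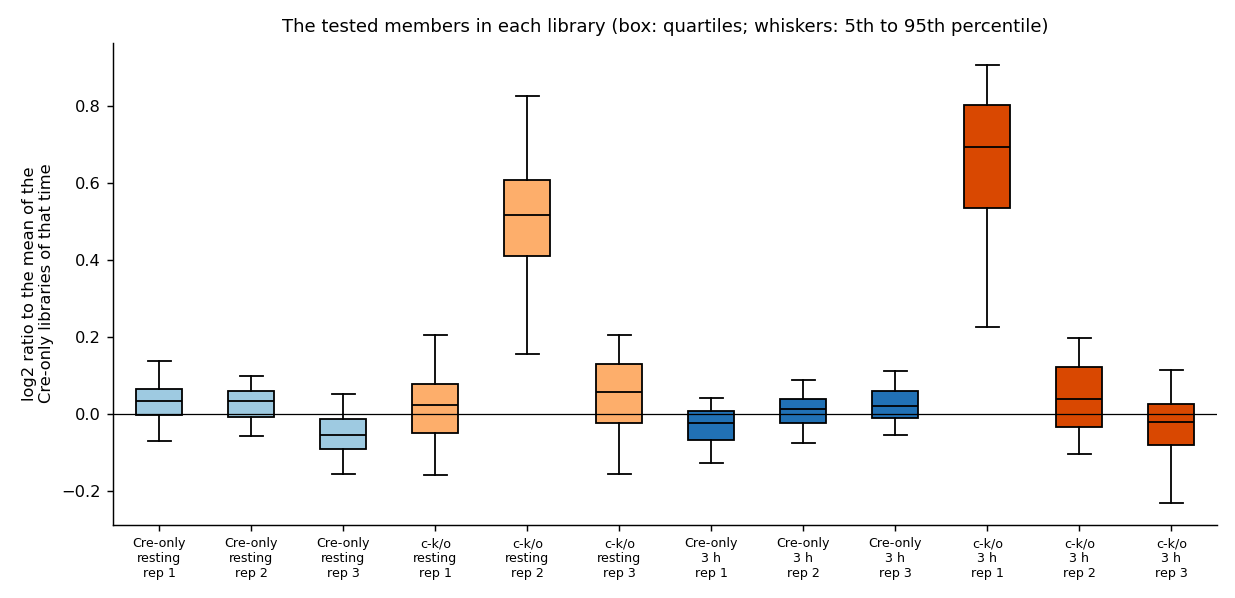
Log2 ratio of the 80 tested members to the Cre-only mean of the same time in each of the 12 libraries, with boxes for quartiles and whiskers for the 5th and 95th percentiles. Replicate 2 of resting and replicate 1 of 3-h Runx1 c-k/o cells are centered at 0.52 and 0.69, and the medians of the other libraries lie between −0.06 and 0.06.

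Both libraries showed the shift in every complex. Complex I summed to 1087, 1501 and 1118 CPM in the 3 Runx1 c-k/o libraries at rest, where Cre-only cells held 1120, 1112 and 1040. Complex IV summed to 842, 1178 and 883 CPM at rest against 796, 817 and 775, and to 1709, 1051 and 980 at 3 h against 955, 997 and 1013. Complex V summed to 4674, 3250 and 3176 CPM at 3 h against 3076, 3164 and 3137. For complexes I and V the other Runx1 c-k/o libraries lay at 1087 to 1118 CPM and 3176 to 3250 CPM, near the Cre-only range. Complex IV at rest stayed above it in all 3 libraries. The 100 genes with the most counts took 23.7% and 23.1% of the reads in these libraries and 18.6% to 21.8% in the others, and the part of this in the shift was not tested.

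Few members differed by genotype without these libraries. Cox7a2l at rest was then higher in Runx1 c-k/o cells by 0.27 (edgeR adjusted p = 0.0344), and the other resting libraries, 166 and 182 CPM, lay above the Cre-only libraries at 142 to 147. Uqcrq at 3 h was higher by 0.25 (adjusted p = 0.0433), with 88.8 and 88.7 CPM against 71.6 to 78.9. That fit called 2.09% of all genes higher at rest and 4.11% at 3 h. In the fits with 1 RUVs factor Atp5sl was lower at rest (−0.22 in edgeR, adjusted p = 0.0344), where the Runx1 c-k/o libraries read 90.2, 87.5 and 85.9 CPM against 102, 103 and 98.9 with Cre-only. At 3 h Uqcrq and Atp5e, the epsilon subunit of complex V, were higher in both tools with that factor (0.33 and 0.25 in edgeR), and Cox5a and Atp5d, the delta subunit, in DESeq2 only. Of all genes, those fits called 1.99% (edgeR) and 2.30% (DESeq2) lower at rest, and 3.36% and 5.20% higher at 3 h. Atp5e at 3 h read 184, 96.7 and 89.5 CPM with Runx1 c-k/o against 82.7, 83.6 and 89.1 with Cre-only, without overlap.

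Other members named by their small p were not called in any direction. At rest Ndufa12 (0.52), Ndufa7 (0.32), Ndufa5 (0.43), Uqcr11 (0.47), Uqcrb (0.25), Uqcrq (0.39), Cox8a (0.32), Cox6a1 (0.37), Atp5d (0.34), Atp5e (0.40) and Atp5g2 (0.29) had adjusted p from 0.464 to 0.646. At 3 h Ndufa7 (0.35), Ndufa10 (0.29), Uqcr10 (0.40), Uqcrfs1 (0.30), Cox8a (0.32), Cox5b (0.38) and Atp5g3 (0.32) had adjusted p from 0.332 to 0.393. Cycs differed by 0.35 at rest and 0.26 at 3 h (adjusted p = 0.592 and 0.518). Sdha, at −0.01 and −0.06, had the smallest differences of complex II. For the interaction the members with the smallest p of complexes I, III, IV and V included Ndufb8 (0.22), Ndufb3 (0.28), Uqcr10 (0.21), Cox6a2 (−0.91, SE 0.792) and Atp5f1 (0.11), all with an adjusted p of 0.999. Assembly factors differed between genotypes by a median of 0.14 at rest and 0.14 at 3 h, and mitochondrially encoded subunits by 0.08 and −0.15.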

How the data were processed

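The authors purified resting B cells from spleen, added ERCC RNA, made poly(A)-selected TruSeq Stranded libraries, aligned paired reads to mm9 with TopHat2 (2.0.11, per the labels), counted reads on genes with featureCounts and deposited raw counts per gene. CASAVA 1.8.4 is also listed in the submitters' processing notes. Strand setting and handling of reads with several alignments are not given in the sources used here. The authors' comparison used DESeq2 with RUV-seq factors whose number is not given. No authors' fold changes were used.

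Genes were mapped to symbols and positions with the mm9 annotation (GENCODE), and 80 of 88 members passed filterByExpr (minimum count 10). Counts were normalized by TMM and tested with edgeR 4.0.16 (robust quasi-likelihood, 1 term for each of the 4 groups, 12 libraries, Benjamini-Hochberg over 13538 genes, threshold 0.05) in R 4.3.3. Normalized CPM is the count scaled to the TMM-adjusted library size. DESeq2 1.42.0, limma 3.58.1, Python 3.11.15, pandas 2.3.3, BLAST 2.17.0 and matplotlib 3.10.9 were also used. The fit was tested on simulated data. An exact permutation test of 3 against 3 cannot go below p = 0.1, so single genes were not tested in that way.

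The members, gene lists and tests were chosen with earlier results of these data known. Named genes were, for each comparison, the 3 members of each complex with the smallest p, all of complex II, Cycs, the extremes of level and the isoform families. Members were called near-identical to another locus at 95% identity or more over at least 90% of the coding sequence, which held for 20 members. Besides Cycs, Atp5g1 and Atp5g2 these included Ndufb11 (1 copy), Cox7b (2), Cox5b (2), Uqcr11 (2) and Uqcrb (3), whose reads may also be shared. The replicates are called biological, the number of mice behind each is not given in the sources used here, and p-values measure the spread between these libraries. The floors of 3 counts cover counting error only. The SE values come from the fitted model and include the spread between libraries, and the SD values are taken over 3 libraries.

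Replicate numbers come from the labels. In Cre-only cells, same-numbered resting and 3-h libraries deviated together (correlations 0.275, 0.176 and 0.144). The main fit held no pairing. Numbers were used as pairs only in the alternatives with a replicate block, which paired both genotypes. In Runx1 c-k/o cells same-numbered libraries deviated together for replicate 3 (0.254) but not for replicates 1 and 2 (−0.254 and −0.264). Each of the latter pairs holds a library that stood apart. Between genotypes same-numbered libraries did not deviate together. The highest correlation between resting and 3-h Runx1 c-k/o libraries, 0.477, was that of the libraries that stood apart, replicate 2 at rest and replicate 1 at 3 h. A shared origin of these libraries was not tested. Alternatives were another normalization, filters on low counts, DESeq2, 1 RUVs factor, a replicate block, the compared groups alone, length and GC offsets, and each library left out in turn.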

Additional observations from a re-analysis of the deposited data

How the results depend on the processing

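With 1 RUVs factor the median activation change of the members reversed, to −0.17 (edgeR) and −0.28 (DESeq2) with Cre-only and to −0.15 and −0.22 with Runx1 c-k/o, with 14 higher and 32 lower, 7 and 37, 14 and 30, and 10 and 33 members. Sdhb reversed to −0.18 and −0.29 with Cre-only and to −0.16 and −0.22 with Runx1 c-k/o, and in the same order Atp5c1 to −0.54 and −0.64 and to −0.56 and −0.62, Cox4i1 to −0.53 and −0.64 and to −0.49 and −0.55, Cox7a2 to −0.44 and −0.54 and to −0.39 and −0.45, and Atp5g2 to −0.29 and −0.40 and to −0.38 and −0.44. Under DESeq2 so did Cox7b in Cre-only (−0.0065) and Sdhd in Runx1 c-k/o cells (−0.018). The same factor gave 1 lower member at rest in either tool (Atp5sl), 2 higher at 3 h in edgeR, 4 in DESeq2, and 1 higher for the interaction in DESeq2. Over all genes it called 1.99% (edgeR) and 2.30% (DESeq2) lower at rest, and 3.36% and 5.20% higher at 3 h. For the interaction DESeq2 called 1.17% higher. The cause was not tested. Leaving out 1 library at a time gave 39 to 58 higher and 3 to 6 lower members on activation in Cre-only cells, 40 to 62 and 3 to 9 with Runx1 c-k/o (9 without replicate 1 of Runx1 c-k/o at 3 h), and 0 between genotypes throughout. Over all genes these fits called 35.7% to 38.9% higher and 33.8% to 39.7% lower on activation with Cre-only. With Runx1 c-k/o they called 34.6% to 37.5% and 34.0% to 36.6%. The median genotype difference then ranged from 0.04 to 0.31 at rest and from 0.02 to 0.40 at 3 h, with the lowest values without the libraries that stood apart, and from −0.16 to 0.23 for the interaction. Leaving out both, a choice made after seeing the data, gave 1 higher member at rest and 1 at 3 h, and 7 and 9 lower members on activation with Cre-only and Runx1 c-k/o. Of all genes, that fit called 2.09% and 4.11% higher between genotypes, and 41.0% and 38.0% lower on activation. Fitting the compared groups alone gave 8 lower members in Cre-only cells (background 42.1%), and the 1.5-fold limit gave 2 (background 31.3%). With the replicate block within genotype, 41 members were higher and 3 lower with Cre-only and 47 and 4 with Runx1 c-k/o. With the block across all groups the counts were 49 and 4, and 54 and 4. Of all genes, the block within genotype called 36.8% higher and 35.1% lower, and 35.6% and 35.4%. The block across all groups called 38.1% and 36.1%, and 36.9% and 36.1%. The block moved no other count of member calls by more than 1.5 times. Over all genes the block within genotype gave 4 higher and 0 lower for the interaction, in place of 9 and 2. DESeq2 size factors gave 39 higher and 4 lower with Cre-only and 53 and 4 with Runx1 c-k/o, and the length offset 52 and 4, and 60 and 4. Of all genes, those size factors called 35.8% higher and 38.9% lower, and 36.3% and 37.7%. The length offset called 40.1% and 37.0%, and 40.6% and 36.2%. Removing the 5 members matched by symbol only, also a later choice, gave 48 higher and 3 lower with Cre-only and 54 and 3 with Runx1 c-k/o. At this depth the 8 untested members cannot be compared.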

Other observations

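On activation 38.6% of all tested genes were higher and 36.4% lower in Cre-only cells, and 37.7% and 36.6% with Runx1 c-k/o. Of 13 citrate cycle enzymes, 12 were higher at 3 h in each genotype, with median log2 fold changes of 0.51 with Cre-only and 0.59 with Runx1 c-k/o, and with 1 RUVs factor (edgeR) 8 were higher and 1 lower in each. Dlst, a subunit of the 2-oxoglutarate dehydrogenase complex, rose by 0.85 in Cre-only cells (SE 0.0751, edgeR adjusted p = 6.7e-07) and by 0.84 in Runx1 c-k/o cells. Idh3g, a regulatory subunit of isocitrate dehydrogenase, read −0.10 in Cre-only cells (adjusted p = 0.395).

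Of 12 regulators of mitochondrial biogenesis, 8 were higher and 1 lower in each genotype, a share called in either direction that is near that over all genes, and under 1 RUVs factor (edgeR) Cre-only cells had 7 and 1 and Runx1 c-k/o cells 6 and 1. Pprc1, a coactivator of the PGC-1 family, rose by 2.67 in Cre-only cells (SE 0.137, adjusted p = 2.26e-08) and by 2.41 with Runx1 c-k/o. Its relative Ppargc1a, which encodes PGC-1alpha, fell by 1.61 in Cre-only cells (SE 0.325, adjusted p = 0.000571) and by 1.77 in Runx1 c-k/o cells.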
